A study of Mus musculus with 3 samples.

Results

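Solute carriers are membrane proteins that move amino acids, sugars, metals, ions, vitamins and mitochondrial metabolites across membranes, and their genes carry the symbol Slc with a family number. Here they were followed in primary mouse peritoneal macrophages, with 1 RNA library for each of 3 conditions: macrophages fed apoptotic cells in a 5 to 1 excess and sampled at 5 h, macrophages given 100 ng/ml of LPS for 5 h, and untreated macrophages. All were titled WT and grown in DMEM, and the labels name neither the strain and age of the mice nor the source of the apoptotic cells. LPS is a bacterial cell wall lipid that starts inflammatory signalling, and the uptake of dying cells is called efferocytosis. The labels give no time for the untreated library, so treatment cannot be told apart from time or handling in any comparison with it. With 1 library per condition there is no replicate check and no p-value, and each difference below is one between libraries.

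The members were the gene symbols that begin with Slc and a digit and were chosen by their mean level, 1 FPKM or more across the libraries, without Slc2a1, Slc7a1, Slc7a2, Slc7a11, Slc16a3 and Slc25a20, which were set aside by name. FPKM counts fragments per length of transcript and per depth of the library, so levels can be compared between genes. Of 20574 gene symbols 320 were Slc symbols. Of these, 127 were listed at 0 in every library, 72 were above 0 somewhere with a lower mean, and 121 reached the mean of 1 FPKM. After the names set aside were taken out, 116 members of 40 families were left. The largest families were the mitochondrial carriers (Slc25, 22 members), the nucleotide sugar carriers (Slc35, 14 members) and the zinc importers (Slc39, 8 members). Among the 116, 2 symbols are no carriers: Slc9a3r1 encodes a scaffold protein that binds a sodium-proton exchanger, and Slc7a6os is a neighbour of Slc7a6 on the other strand. The mean that chose the members is a level and no comparison between libraries, but it lets in genes that are high in a single library. With its highest library left out, 44 of the 116 would have had a mean under 1 FPKM, so the counts below are descriptions. Just inside the threshold lay Slc39a8 (mean 1.02 FPKM), Slc26a6 (1.02 FPKM) and Slc6a12 (1.21 FPKM), and just outside it Slc43a3 (0.911 FPKM), Slc17a5 (0.889 FPKM) and Slc25a40 (0.852 FPKM).

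Carriers work in a few well-known arrangements in macrophages. Slc3a2 is the heavy chain that brings amino acid exchangers of the Slc7 family to the cell surface, where large neutral amino acids enter in exchange for others. Lysosomal carriers release peptides, amino acids, nucleosides, heme and sugars from digested material, and the Slc25 family links the cytosol to the mitochondrial matrix by exchanging nucleotides, phosphate, citrate and amino acids.

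The 3 libraries summed to 197222 FPKM with apoptotic cells, 200224 with LPS and 199881 untreated. Depth is not stated. Steps of 1 read were fitted to the spacing of the smallest values of genes with a single annotated transcript. The best fit puts 1 FPKM on 2 kb of transcript at about 6.56 reads with apoptotic cells, 5.80 with LPS and 6.56 untreated. Between 50.5% and 53.7% of those small values lay within 0.15 read of a whole number, so the estimate is approximate and reads were not recovered. The step was chosen by its fit to these same values, so that share is no check on it. Members near 1 FPKM therefore rest on few reads. Macrophage markers were checked first. Of 11 on the list 5 were analysed here, and they were above 0 in 5 cases with apoptotic cells, 3 with LPS and 4 untreated. Csf1r, the growth factor receptor of macrophages, was listed at 185 FPKM with apoptotic cells, 0 with LPS and 56.3 FPKM untreated, and the LPS co-receptor gene Cd14 at 555 FPKM, 0 and 303 FPKM in the same conditions. Markers of other cell types differed between the libraries as well. Mast cell markers summed to 13.8 FPKM with apoptotic cells (5 of 6 above 0), 10.2 FPKM with LPS (6 of 6) and 93.0 FPKM untreated (5 of 6). T cell and thymocyte markers summed to 87.1 FPKM with apoptotic cells (8 of 9 above 0), 2.05 FPKM with LPS (5 of 9) and 16.1 FPKM untreated (2 of 9). B-cell markers summed to 154 FPKM with apoptotic cells (5 of 7 above 0), 117 FPKM with LPS (7 of 7) and 86.1 FPKM untreated (2 of 7), and neutrophil markers to 135 FPKM (5 of 5), 224 FPKM (3 of 5) and 52.9 FPKM (4 of 5) in the same conditions. These sums depend on the listed zeros and on single genes. Of the T cell and thymocyte markers, Rag1 alone stood at 41.2 FPKM with apoptotic cells. Those above 0 both there and untreated were lower with apoptotic cells: Cd3g at 10.6 against 12.6 FPKM and Cd4 at 1.80 against 3.48 FPKM. Against LPS, 4 of the 4 that could be compared were at least 2-fold higher with apoptotic cells. The B-cell markers above 0 in all libraries were lower in both treated ones: Blnk at 38.4 FPKM with apoptotic cells, 18.5 with LPS and 82.7 untreated, and Cr2 at 0.0965, 0.198 and 3.44 FPKM in the same conditions. S100a8 made up most of the neutrophil sum in each library, and Mmp8 stood at 15.98 FPKM with apoptotic cells, 0.548 with LPS and 2.48 untreated. Mesothelial and fibroblast markers summed to 1.81 FPKM with apoptotic cells (4 of 6 above 0), 1.13 FPKM with LPS (2 of 6) and 24.8 FPKM untreated (6 of 6). The part of these cells in the carrier values was not tested, and more cells of a type cannot be told apart from more RNA per cell. In the apoptotic-cell library, RNA of the added cells cannot be told apart from RNA of the macrophages.

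A value listed as exactly 0 was common and cannot be read as absence. Genes that every cell uses were among them: Ppia, a protein-folding enzyme, was listed at 0 with apoptotic cells, 1767 FPKM with LPS and 1841 FPKM untreated. Of the 116 members, 44 were above 0 in all 3 libraries, 39 in 2 and 33 in 1. Members listed at 0 numbered 24 with apoptotic cells, 25 with LPS and 56 untreated. The untreated library stood apart in this: of 72 members above 0 in both treated libraries, 28 (38.9%) were listed at 0 there, against 37.1% over all genes averaging 1 FPKM or more. The same share was 10.2% (5 of 49) with apoptotic cells, against 15.5% over all genes, and 12% (6 of 50) with LPS, against 14.2%. Members with no listed 0 had a median of 4 annotated transcripts, those with a single 0 had 5 and those with 2 had 7. Over all genes these medians were 4, 5 and 6, and the part of the transcript number in the zeros was not tested. Because of the zeros, ratios were formed only between libraries in which the gene was above 0, as log2((FPKM + 1)/(FPKM + 1)), a form that shrinks differences between low values.

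**Figure D1:**
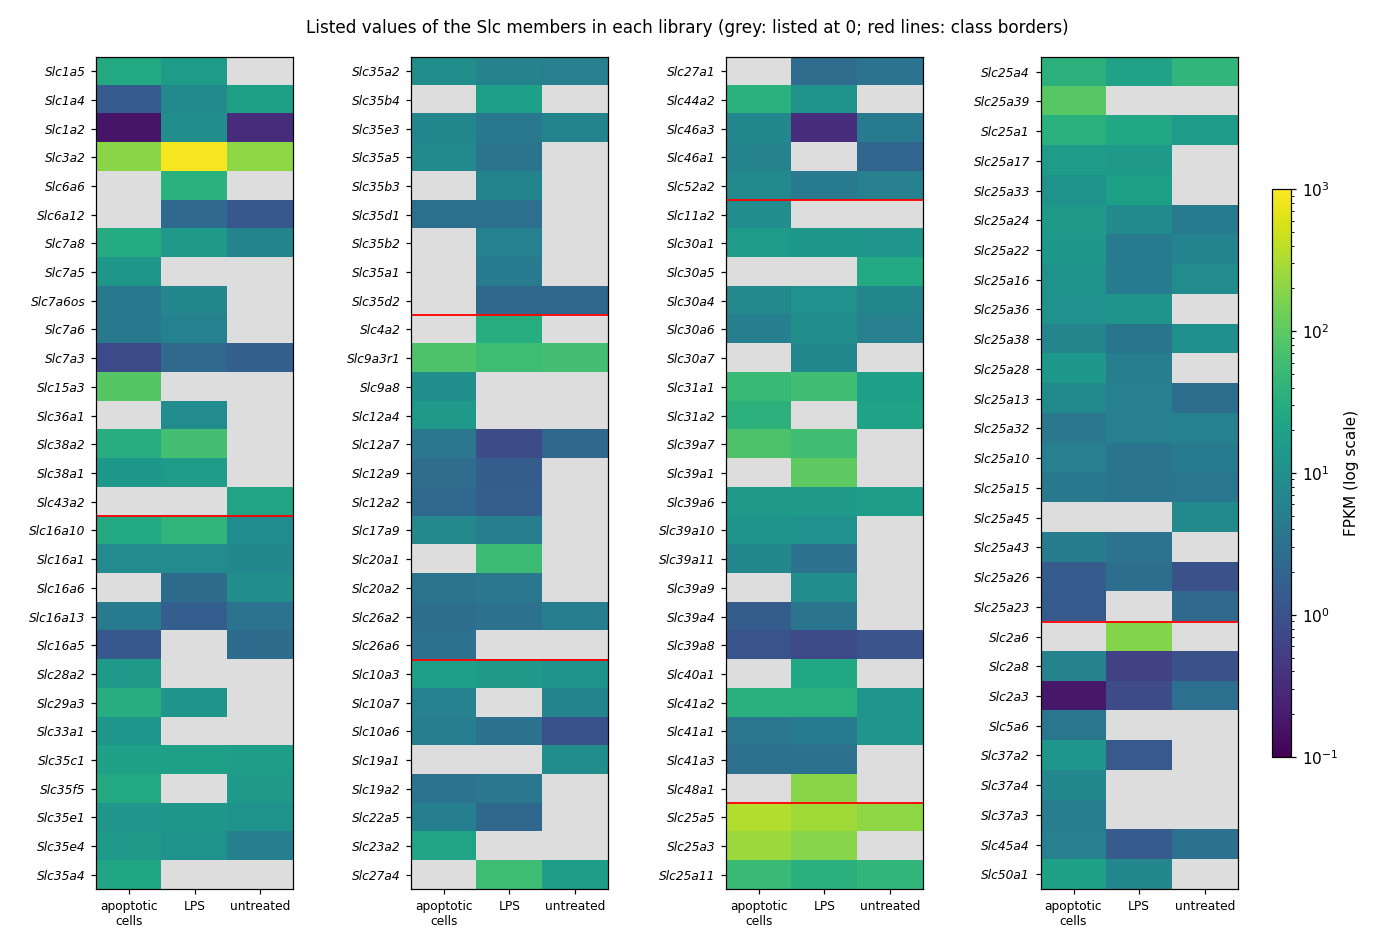
Listed FPKM (log colour scale) of the members, without 1 that is not reported, ordered by substrate class (red lines) and family, in the apoptotic-cell, LPS and untreated libraries. Grey cells are values listed at 0, which are most frequent in the untreated column.

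With apoptotic cells, the neutral amino acid exchanger Slc7a8 and the intracellular glucose carrier Slc2a8 stood highest relative to the untreated library, and the serine and alanine carrier Slc1a4 lowest. Of 50 members that could be compared, 11 were at least 2-fold higher with apoptotic cells (22%, against 12.4% of 3369 genes) and 3 were at least 2-fold lower (6%, against 16.4%). The median log2 ratio was 0.30 over the members and -0.13 over all genes. The higher members in order were Slc7a8, Slc2a8, Slc10a6, Slc25a24, Slc16a10, Slc31a1, Slc41a2, Slc25a13, Slc46a1, Slc35e4 and Slc25a1, and the lower ones were Slc1a4, Slc2a3 and Slc41a1.

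With LPS, the heavy chain Slc3a2, the glutamate importer Slc1a2, the aromatic amino acid carrier Slc16a10 and the fatty acid transport protein Slc27a4 stood highest relative to the untreated library. Of 49 members that could be compared, 8 were at least 2-fold higher with LPS (16.3%, against 8.51% of 3421 genes) and 7 were at least 2-fold lower (14.3%, against 26.2%). The median log2 ratio was 0.03 over the members and -0.40 over all genes. The other 4 higher members were Slc31a1, Slc41a2, Slc7a8 and Slc10a6, and the 7 lower ones were Slc46a3, Slc16a6, Slc41a1, Slc25a38, Slc1a4, Slc2a3 and Slc25a4. The balance depends on the scaling: with median-of-ratios scaling 15 were higher and 2 lower, and the median of all genes moved by 0.51. Of the 3421 genes, 647 were then higher and 450 lower, against 291 and 896 as deposited. The members' median lay 0.43 above that of all genes as deposited and 0.37 above it after that scaling. Scaling shifts the ratios of members and of other genes nearly alike, so this gap is no check on the members.

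Apoptotic cells against LPS could be compared for the most members, 72. Of these 13 were at least 2-fold higher with apoptotic cells (18.1%, against 15.7% of 4599 genes) and 3 were at least 2-fold lower (4.17%, against 5.54%). These shares lie near those of all genes, and the median of 0.34 over the members lies near the 0.32 of all genes. Of the members classed with sugars 4 of 5, and of those classed with amino acids 2 of 10, had a log2 ratio above 0, against 3199 of all 4599 genes. As deposited, the 3 members lower with apoptotic cells, Slc1a2, Slc3a2 and Slc1a4, all carry amino acids or help to. With median-of-ratios scaling 7 were higher and 9 lower, around a median of -0.02 over the members and -0.01 over all genes. Of the 4599 genes, 420 were then higher and 444 lower. The 9 lower members included the zinc carriers Slc39a4 and Slc30a6 and the mitochondrial carrier Slc25a33. The shares over all genes in the 3 comparisons are also the background of the counts by class, which rest on few ratios each.

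**Figure D2:**
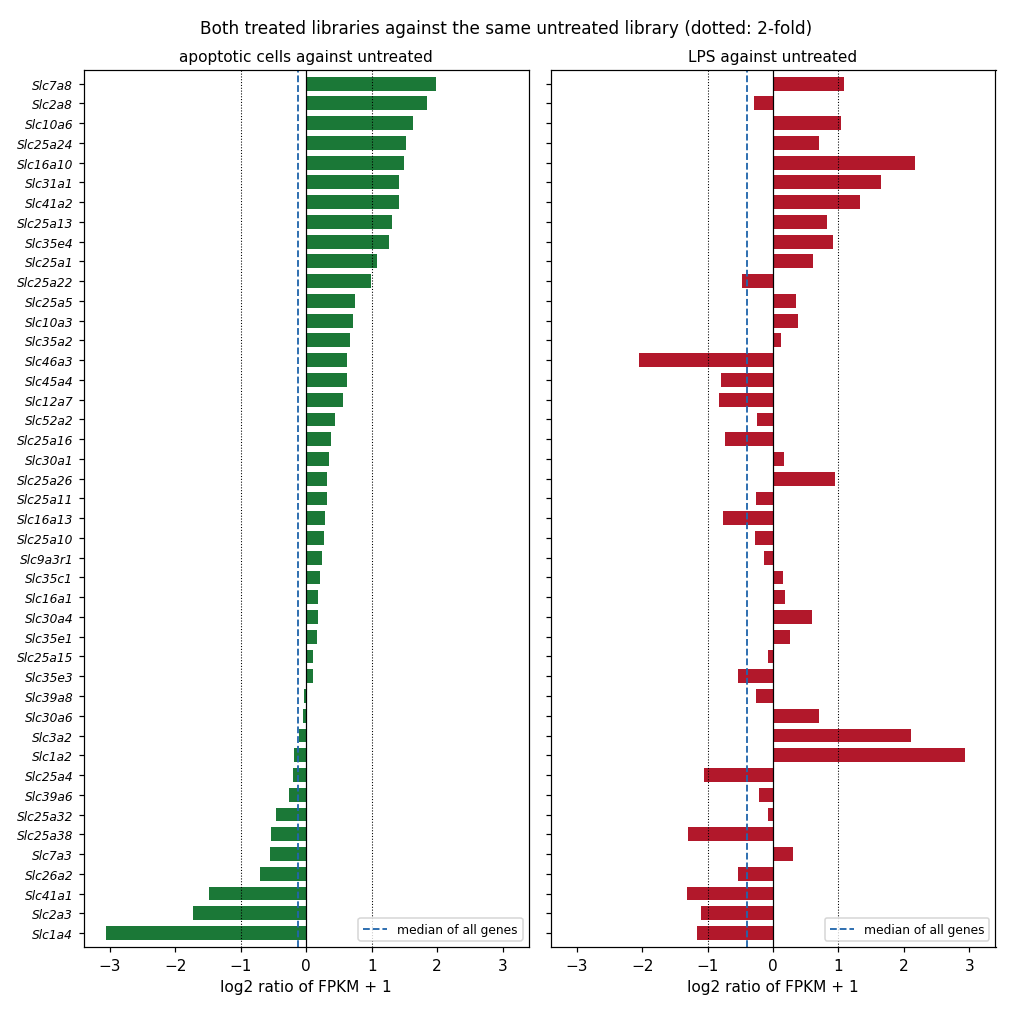
Log2 ratio of FPKM + 1 for the 44 members above 0 in all 3 libraries, with apoptotic cells (left panel) and with LPS (right panel), each against the same untreated library. Bars are single library pairs, dotted lines mark 2-fold and dashed lines the median of all genes (-0.13 on the left, -0.40 on the right), and Slc1a4 has the lowest bar on the left and Slc1a2 the highest on the right.

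Amino acid and peptide carriers held 16 members. Slc3a2, the common heavy chain of the Slc7 exchangers, was the highest of all members by mean, with 191 FPKM with apoptotic cells, 896 with LPS and 207 untreated. The LPS library alone was high, and the other libraries were close to each other. The log2 ratio was -0.11 for apoptotic cells against untreated, 2.11 for LPS against untreated and -2.22 for apoptotic cells against LPS. This gene made up 31.03% of all member FPKM in the LPS library, 8.88% with apoptotic cells and 20.8% untreated. These shares also depend on the zeros listed for other members, which were most frequent untreated. In mm10 it lies on chromosome 19 from 8706882 to 8723369, on the minus strand. The 250 bases before its RefSeq start (GRCm38.p6, chr19:8713898-8714147, minus strand, inside the span that GENCODE gives the gene) are printed as the start region of the highest member, with the GC box letters GGGCGG, on either strand, in capitals.
Slc3a2: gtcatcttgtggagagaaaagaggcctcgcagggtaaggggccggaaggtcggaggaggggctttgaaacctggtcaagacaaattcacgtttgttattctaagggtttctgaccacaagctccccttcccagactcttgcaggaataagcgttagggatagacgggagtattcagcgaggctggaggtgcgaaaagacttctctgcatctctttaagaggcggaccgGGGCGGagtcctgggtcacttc

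Among the members, Slc7a8 was the light chain of Slc3a2 above 0 in all libraries, and it did not share the order of Slc3a2. Slc7a5 and Slc7a6 had listed zeros and could not be ordered over all libraries. Slc7a8, which exchanges small and large neutral amino acids, stood at 28.5 FPKM with apoptotic cells, 14.8 with LPS and 6.47 untreated. Both treated libraries were above the untreated one, with log2 ratios of 1.98 for apoptotic cells and 1.08 for LPS against untreated. Slc7a5, the main importer of large neutral amino acids, was listed at 12.97 FPKM with apoptotic cells alone, against 0 in the LPS and untreated libraries. Slc7a6, another exchanger, was listed at 4.17 FPKM with apoptotic cells, 5.75 with LPS and 0 untreated, close to its neighbour Slc7a6os at 4.16 FPKM, 6.98 FPKM and 0. In every library the level of Slc3a2 was above that of each Slc7 member. Slc7a3, an importer of cationic amino acids, was low throughout, at 0.804 FPKM with apoptotic cells, 2.30 with LPS and 1.66 untreated.

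The Slc1 family carries glutamate in some members and small neutral amino acids in others, and its 3 members differed from one another. Slc1a4, a serine, alanine and cysteine exchanger, stood at 1.37 FPKM with apoptotic cells, 7.80 with LPS and 18.8 untreated. Its log2 ratios were -3.06 for apoptotic cells against untreated, the lowest of all members, -1.17 for LPS against untreated and -1.90 for apoptotic cells against LPS. The ratio for LPS was within 2-fold after median-of-ratios scaling (-0.59) and upper-quartile scaling (-0.81). Slc1a2, the glial-type glutamate importer, stood at 0.166 FPKM with apoptotic cells, 9.17 with LPS and 0.325 untreated. It was high with LPS alone, with a log2 ratio of 2.94 against untreated, and on 2 kb its low values stand for about 1.09 and 2.13 reads. Some of its exons are overlapped by Gm13872 on the other strand, and the strandedness of the libraries is not given in the sources used here. Slc1a5, the glutamine importer, was listed at 27.4 FPKM with apoptotic cells, 15.6 with LPS and 0 untreated.

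Members of the Slc38 family import glutamine and alanine with sodium. Slc38a2 was listed at 30.95 FPKM with apoptotic cells, 62.8 with LPS and 0 untreated, a log2 ratio of -0.997 for apoptotic cells against LPS that falls just short of 2-fold. Slc38a1 was closer between the treated libraries, at 13.3 FPKM with apoptotic cells and 15.6 FPKM with LPS, and was also listed at 0 untreated. Of the carriers above 0 in a single library, Slc15a3, a lysosomal exporter of peptides and histidine, stood at 87.5 FPKM with apoptotic cells and the taurine importer Slc6a6 at 36.05 FPKM with LPS. Slc36a1, a lysosomal proton-coupled amino acid exporter, was listed at 8.43 FPKM with LPS alone and Slc43a2, which carries large neutral amino acids, at 21.4 FPKM untreated alone. No ratio can be formed for these. As a class, 10 members could be compared between the treated libraries, with a median log2 ratio of -0.75 for apoptotic cells against LPS, 3 at least 2-fold lower and 0 at least 2-fold higher. Against untreated, 1 of 5 was higher and 1 lower with apoptotic cells, and 3 of 6 were higher and 1 lower with LPS.

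The class of sugar and sugar phosphate carriers, set by family number, held 9 members, and 6 of them were listed at 0 in the untreated library. Over all genes averaging 1 FPKM or more, 41.2% were listed at 0 there. Slc2a8, an intracellular glucose carrier, stood at 6.10 FPKM with apoptotic cells, 0.625 with LPS and 0.982 untreated. It was high with apoptotic cells alone, with log2 ratios of 1.84 against untreated and 2.13 against LPS. Slc2a3, a high-affinity glucose importer, was lowest with apoptotic cells, with 0.180 FPKM with apoptotic cells, 0.828 with LPS and 2.93 untreated, and its lowest value stands for about 1.18 reads on 2 kb. Slc2a6, a lysosomal glucose carrier, was listed at 181 FPKM with LPS and at 0 in the other libraries. Slc37a2, a sugar phosphate exchanger of the endoplasmic reticulum that is abundant in macrophages, was listed at 12.8 FPKM with apoptotic cells, 1.29 with LPS and 0 untreated, a log2 ratio of 2.59 for apoptotic cells against LPS. Its exons overlap those of Gm48081 on the other strand. Slc50a1, a sugar efflux carrier of the Golgi, was listed at 19.5 FPKM with apoptotic cells, 6.99 with LPS and 0 untreated, and its log2 ratio of 1.36 became 0.99 after median-of-ratios scaling. Slc45a4 stood at 5.48 FPKM with apoptotic cells, 1.43 with LPS and 3.23 untreated. Of the 5 sugar carriers above 0 in both treated libraries, 4 were at least 2-fold higher with apoptotic cells than with LPS and 0 were lower, around a median of 1.42. The glucose 6-phosphate carrier Slc37a4 (7.23 FPKM) and Slc37a3 (5.08 FPKM) were listed above 0 with apoptotic cells alone, as was Slc5a6 (3.73 FPKM), a multivitamin carrier that its family number places in this class.

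**Figure D3:**
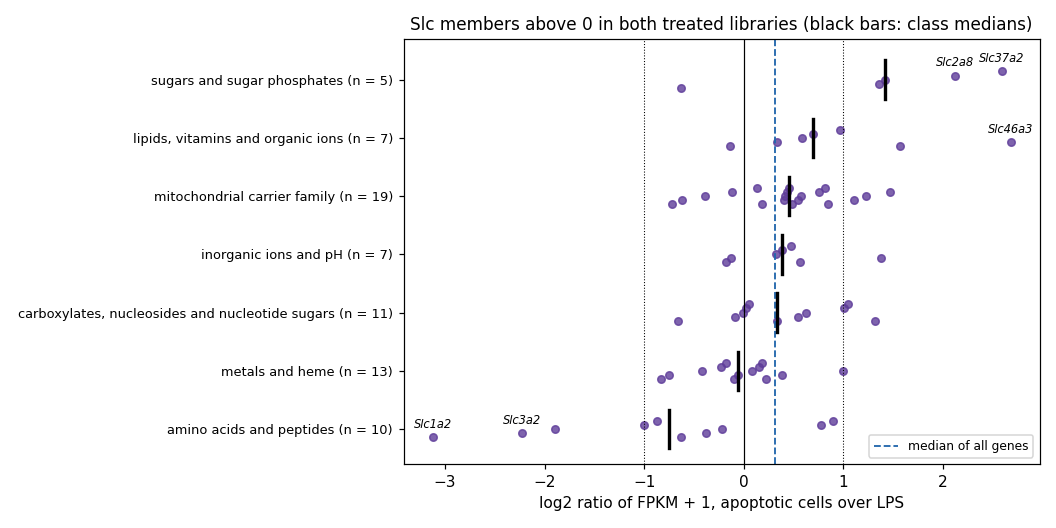
Log2 ratio of FPKM + 1 for apoptotic cells over LPS of the 72 members above 0 in both treated libraries, by substrate class. Each point is a gene, black bars are class medians (1.42 for sugars at the top, -0.75 for amino acids at the bottom), dotted lines mark 2-fold and the dashed line is the median of all genes at 0.32.

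Mitochondrial carriers, the Slc25 family, were the most evenly listed class, with 13 of 22 members above 0 in all 3 libraries. Over all genes averaging 1 FPKM or more, 2891 of 7147 were above 0 in all of them. The Slc25 members summed to 947 FPKM with apoptotic cells, 630 with LPS and 367 untreated, and these sums include the zeros. Slc25a5, the main exchanger of ADP for ATP, stood at 351 FPKM with apoptotic cells, 266 with LPS and 208 untreated, a spread of under 2-fold. Slc25a5 has an annotated transcribed pseudogene, Slc25a5-ps, whose reads may not be separated from it. Slc25a4, the other common form of this exchanger, stood at 36.7 FPKM with apoptotic cells, 19.9 with LPS and 42.4 untreated. Its log2 ratio for LPS against untreated was -1.05, which was -0.45 after median-of-ratios scaling. Slc25a3, the phosphate carrier that ATP synthesis needs, was listed at 252 FPKM with apoptotic cells, 189 with LPS and 0 untreated. The origin of this listed 0 was not tested.

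The Slc25 members at least 2-fold higher with apoptotic cells than untreated were 3 of 14, and 0 were lower. Slc25a24, which exchanges ATP-magnesium for phosphate, stood at 14.8 FPKM with apoptotic cells, 7.97 with LPS and 4.51 untreated (log2 ratio 1.52 with apoptotic cells). Slc25a13, the aspartate and glutamate exchanger of the malate-aspartate shuttle, stood at 8.25 FPKM with apoptotic cells, 5.62 with LPS and 2.75 untreated (1.30). Slc25a1, which exports citrate for fatty acid and sterol synthesis, stood at 35.3 FPKM with apoptotic cells, 25.5 with LPS and 16.3 untreated (1.07). In all of them the LPS library lay between the others, at log2 ratios of 0.70, 0.82 and 0.62 against untreated. Slc25a22, a glutamate carrier, stood at 13.7 FPKM with apoptotic cells, 4.33 with LPS and 6.39 untreated, just short of 2-fold against untreated (0.995) and past it against LPS (1.47).

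Lower with LPS than untreated were 2 of 13, Slc25a4 and Slc25a38, and 0 were higher. Slc25a38, which supplies glycine for heme synthesis, stood at 6.66 FPKM with apoptotic cells, 3.53 with LPS and 10.1 untreated. Its log2 ratio of -1.30 for LPS became -0.77 after median-of-ratios scaling. Between the treated libraries 3 of 19 were at least 2-fold higher with apoptotic cells, a share near the 15.7% of all genes, and 0 were lower (5.54% of all genes), around a median of 0.46. Besides Slc25a22 these were the mitochondrial iron importer Slc25a28, listed at 13.5 FPKM with apoptotic cells, 5.21 with LPS and 0 untreated, and Slc25a16, at 11.2 FPKM, 4.66 FPKM and 8.40 FPKM in the same conditions. Both were within 2-fold after median-of-ratios scaling (0.87 and 0.76). Slc25a11, Slc25a10 and Slc25a15 were within 2-fold in every comparison. Slc25a11, which exchanges oxoglutarate for malate, stood at 52.9 FPKM with apoptotic cells, 35.2 with LPS and 42.3 untreated. The dicarboxylate carrier Slc25a10 stood at 5.43 FPKM, 3.41 FPKM and 4.34 FPKM in the same conditions, and the ornithine carrier Slc25a15 at 4.09 FPKM, 3.49 FPKM and 3.73 FPKM. Of the remaining Slc25 members, Slc25a17, Slc25a33, Slc25a36 and Slc25a43 were listed at 0 untreated alone and Slc25a23 with LPS alone, Slc25a26 and Slc25a32 were above 0 throughout, and none of these reached 2-fold in a comparison. Slc25a45 was listed at 8.2 FPKM untreated alone. Slc25a39, which brings glutathione into mitochondria, was listed at 91.8 FPKM with apoptotic cells alone, against 0 in the other libraries.

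The start regions of Slc25a1 (chr16:17928220-17928469, minus strand) and Slc25a13 (chr6:6217174-6217423, minus strand) are printed as those of the citrate carrier and the aspartate and glutamate carrier, both of which hold the E-box letters CACGTG. Each run is the 250 bases before the RefSeq start in GRCm38.p6, with the E-box letters, the letters of an AP-1 site (TGANTCA) and the GC box letters on either strand in capitals.
Slc25a1: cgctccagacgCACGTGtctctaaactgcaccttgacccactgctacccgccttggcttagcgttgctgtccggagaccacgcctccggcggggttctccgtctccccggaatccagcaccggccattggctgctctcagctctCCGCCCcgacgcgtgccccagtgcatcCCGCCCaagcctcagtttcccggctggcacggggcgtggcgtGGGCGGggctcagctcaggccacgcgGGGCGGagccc
Slc25a13: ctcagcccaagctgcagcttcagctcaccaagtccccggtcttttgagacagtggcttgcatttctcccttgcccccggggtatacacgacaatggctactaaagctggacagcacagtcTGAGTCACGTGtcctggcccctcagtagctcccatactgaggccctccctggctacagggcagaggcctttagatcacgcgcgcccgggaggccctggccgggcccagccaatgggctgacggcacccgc

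In Slc25a13 the AP-1 letters start 130 bases and the E-box letters 125 bases before the gene start, so the runs overlap. Both strands were searched in the RefSeq promoters, which exist for 89 of the 116 members. The E-box letters were found for 18 of the 89 (20.2%), against 10.1% of 5164 genes averaging 1 FPKM or more and 6.02% of all 32851 promoters. The GC box letters were found for 69.7% of the members, 65.3% of those genes and 32.7% of all promoters, and the AP-1 letters for 4.49%, 4.76% and 6.75%. The letters TGATGNAA, part of the amino acid response element bound by C/EBP and ATF factors, were found for 1.12% of the members (Slc50a1), 2.27% of those genes and 3.45% of all promoters. A match is a run of letters in this window and not a binding site. The E-box members were spread over the classes, from the lactate carrier Slc16a1 to the chloride carrier Slc12a7.

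Metal and heme carriers held 21 members. Slc31a1, the copper importer of the cell surface, stood at 49.6 FPKM with apoptotic cells, 58.4 with LPS and 17.99 untreated. Both treated libraries were above the untreated one, with log2 ratios of 1.41 for apoptotic cells and 1.65 for LPS. Its relative Slc31a2 was listed at 37.4 FPKM with apoptotic cells, 0 with LPS and 20.2 FPKM untreated. Among the magnesium carriers of the Slc41 family, Slc41a2 stood higher and Slc41a1 lower in the treated libraries than untreated. Slc41a2 stood at 34.4 FPKM with apoptotic cells, 32.5 with LPS and 12.3 untreated, with log2 ratios of 1.41 and 1.33 against untreated. Slc41a1 stood at 3.69 FPKM with apoptotic cells, 4.31 with LPS and 12.2 untreated, with log2 ratios of -1.49 and -1.31 against untreated, of which the ratio for LPS became -0.77 after median-of-ratios scaling. In the untreated library the pair were nearly equal, and both treated comparisons rest on that same library. Slc41a2 lies on chromosome 10 from 83230848 to 83337882 and Slc41a1 on chromosome 1 from 131827493 to 131848865 in mm10. Their start regions (GRCm38.p6, chr10:83337818-83338067 on the minus strand and chr1:131827762-131828011 on the plus strand) are printed because these relatives lay on opposite sides of the untreated level. By the spans that GENCODE gives, the Slc41a1 region lies inside its gene and the Slc41a2 region runs into its gene. GGGCGG or its reverse complement is in capitals, found 0 times for Slc41a2 and 5 times for Slc41a1. A link of these letters to the ratios was not tested.
Slc41a2: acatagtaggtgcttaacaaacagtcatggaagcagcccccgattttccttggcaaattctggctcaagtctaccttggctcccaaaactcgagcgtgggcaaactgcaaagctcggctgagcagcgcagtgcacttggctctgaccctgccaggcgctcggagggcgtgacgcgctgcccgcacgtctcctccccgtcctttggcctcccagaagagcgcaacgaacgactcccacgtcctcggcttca
Slc41a1: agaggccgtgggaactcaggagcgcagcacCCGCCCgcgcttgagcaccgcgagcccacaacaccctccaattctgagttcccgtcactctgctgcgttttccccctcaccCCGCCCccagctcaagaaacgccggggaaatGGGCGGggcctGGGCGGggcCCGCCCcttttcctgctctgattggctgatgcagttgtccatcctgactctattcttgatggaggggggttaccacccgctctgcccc

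Several zinc carriers lay close together in the 3 libraries. Slc30a1, the zinc exporter of the cell surface, stood at 15.7 FPKM with apoptotic cells, 13.8 with LPS and 12.1 untreated, and the zinc importer Slc39a6 at 14.03 FPKM, 14.6 FPKM and 17.04 FPKM in the same conditions. Exons of Slc30a1 overlap a gene on the other strand in the annotation. Slc30a4 and Slc30a6, which load zinc into vesicles and the Golgi, were also above 0 throughout, at 7.75 FPKM and 5.29 FPKM with apoptotic cells, 10.7 FPKM and 9.596 FPKM with LPS and 6.74 FPKM and 5.49 FPKM untreated. Slc39a7, which releases zinc from the endoplasmic reticulum, was listed at 77.0 FPKM with apoptotic cells, 58.6 with LPS and 0 untreated. The iron and heme carriers of this class (Slc11a2, Slc40a1 and Slc48a1) were each above 0 in a single library. Slc48a1, which exports heme from the phagosome when red cells are digested, was listed at 193 FPKM with LPS and at 0 in the other libraries, and overlaps Hdac7 on the other strand. The iron exporter Slc40a1 was listed at 24.8 FPKM with LPS alone, the iron importer Slc11a2 at 9.12 FPKM with apoptotic cells alone and the zinc importer Slc39a1, which has an annotated processed pseudogene, at 100.4 FPKM with LPS alone. Slc39a10, Slc39a11, Slc39a4 and the magnesium carrier Slc41a3 were listed at 0 untreated alone and were within 2-fold between the treated libraries, Slc39a11 narrowly (0.998). Slc30a7 (7.47 FPKM) and Slc39a9 (8.99 FPKM) were listed above 0 with LPS alone and Slc30a5 (28.1 FPKM) untreated alone. In the class, 2 of 9 were past 2-fold on the higher side and 1 on the lower with apoptotic cells than untreated, and 2 of 8 higher and 1 lower with LPS. Between the treated libraries 0 of 13 reached 2-fold in either direction, around a median of -0.05.

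Carriers of carboxylates, nucleosides and nucleotide sugars held 22 members. Slc16a10, which belongs to the lactate carrier family by number but moves aromatic amino acids, stood at 26.9 FPKM with apoptotic cells, 43.2 with LPS and 8.85 untreated. Both treated libraries were above the untreated one, with log2 ratios of 1.5 for apoptotic cells and 2.16 for LPS. Slc16a1, the lactate and pyruvate carrier, was the most level of the 44 members above 0 throughout, at 8.48 FPKM with apoptotic cells, 8.55 with LPS and 7.38 untreated. Its chaperone gene Bsg, which is not an Slc gene, stood at 260 FPKM, 114 FPKM and 98.4 FPKM in the same conditions. Slc16a6 was listed at 0 with apoptotic cells, 2.56 FPKM with LPS and 9.36 FPKM untreated, a log2 ratio of -1.54 for LPS, and exons of Amz2 and Arsg overlap it on the other strand. Nucleotide sugar carriers feed the glycosylation of proteins in the Golgi. The GDP-fucose carrier Slc35c1 was level, at 19.8 FPKM with apoptotic cells, 19.01 with LPS and 16.96 untreated. Slc35e4 was the Slc35 member past 2-fold against untreated, at 13.97 FPKM with apoptotic cells, 10.8 with LPS and 5.26 untreated (1.26 with apoptotic cells, 0.92 with LPS). Slc29a3, which releases nucleosides from lysosomes, was listed at 31.2 FPKM with apoptotic cells, 11.9 with LPS and 0 untreated, a log2 ratio of 1.32 that became 0.94 after median-of-ratios scaling. Slc16a13, of the lactate carrier family, stood at 4.34 FPKM with apoptotic cells, 1.58 with LPS and 3.39 untreated, and Slc35a5 was listed at 7.92 FPKM, 3.44 FPKM and 0 in the same conditions. Both were just past 2-fold between the treated libraries (1.05 and 1.01) and within it after median-of-ratios scaling (0.78 and 0.68). Slc35a2, the UDP-galactose carrier, stood at 9.34 FPKM with apoptotic cells, 6.09 with LPS and 5.54 untreated, and Slc35e1 and Slc35e3 were likewise above 0 throughout and within 2-fold. Of the other Slc35 members, Slc35a1, the carrier of CMP-sialic acid, Slc35b2, the carrier of the sulfate donor PAPS, Slc35b3 and Slc35b4 were listed above 0 with LPS alone (4.69 to 17.95 FPKM) and Slc35a4 with apoptotic cells alone (22.5 FPKM). Slc35f5 and Slc16a5 were listed at 0 with LPS alone, Slc35d2 with apoptotic cells alone and Slc35d1 untreated alone, and each was within 2-fold where it could be compared. The nucleoside importer Slc28a2 (14.3 FPKM) and the acetyl-CoA carrier Slc33a1 (12.9 FPKM) were listed above 0 with apoptotic cells alone. In the class, 2 of 10 were at least 2-fold higher with apoptotic cells than untreated and 0 lower, 1 of 10 higher and 1 lower with LPS than untreated, and 3 of 11 higher and 0 lower with apoptotic cells than with LPS.

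Carriers of lipids, vitamins and organic ions held 13 members. Slc46a3, a lysosomal exporter, stood at 7.48 FPKM with apoptotic cells, 0.322 with LPS and 4.49 untreated. It was low with LPS alone, where its value stands for about 1.87 reads on 2 kb, with log2 ratios of -2.05 for LPS against untreated and 2.68 for apoptotic cells against LPS, the highest of all members. Its relative Slc46a1, the proton-coupled folate importer, was at 6.24 FPKM with apoptotic cells and 2.01 FPKM untreated (log2 ratio 1.27), and was listed at 0 with LPS. Slc10a6, a carrier of sulfated steroids, stood at 5.21 FPKM with apoptotic cells, 3.13 with LPS and 1.01 untreated. Its log2 ratios against untreated were 1.63 with apoptotic cells and 1.04 with LPS, while its family member Slc10a3 reached 0.71 and 0.38. Slc27a4, a fatty acid transport protein that also activates fatty acids, was listed at 0 with apoptotic cells, 56.9 FPKM with LPS and 17.1 FPKM untreated (1.68 with LPS). Slc44a2, a choline carrier, was listed at 36.1 FPKM with apoptotic cells, 11.5 with LPS and 0 untreated, a log2 ratio of 1.57. The carnitine importer Slc22a5 was listed at 5.25 FPKM with apoptotic cells, 2.21 with LPS and 0 untreated. The ascorbate importer Slc23a2 was listed at 21.99 FPKM in the apoptotic-cell library alone and the reduced folate carrier Slc19a1 at 9.27 FPKM untreated alone. The riboflavin importer Slc52a2, the thiamine importer Slc19a2, Slc10a7 and the fatty acid transport protein Slc27a1 were within 2-fold wherever they could be compared. In the class, 2 of 6 were past 2-fold higher, 0 lower, with apoptotic cells than untreated, 2 of 6 higher and 1 lower with LPS than untreated, and 2 of 7 higher and 0 lower with apoptotic cells than with LPS.

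Carriers of inorganic ions held 13 members, of which 3 were above 0 in all libraries and 9 were listed at 0 untreated. Over all 7147 genes averaging 1 FPKM or more, 2891 were above 0 in all libraries and 41.2% were listed at 0 untreated. The scaffold gene Slc9a3r1 stood at 75.2 FPKM with apoptotic cells, 57.3 with LPS and 63.4 untreated. Slc12a7, which exports potassium with chloride, stood at 3.79 FPKM with apoptotic cells, 0.835 with LPS and 2.25 untreated, and was the member of the class past 2-fold, with a log2 ratio of 1.38 for apoptotic cells against LPS. The sulfate carrier Slc26a2 stood at 2.79 FPKM with apoptotic cells, 3.27 with LPS and 5.22 untreated. The phosphate importer Slc20a1 (55.4 FPKM) and the chloride and bicarbonate exchanger Slc4a2 (31.4 FPKM) were listed above 0 with LPS alone, and the potassium and chloride exporter Slc12a4 (14.4 FPKM) with apoptotic cells alone. Slc12a2, Slc12a9, Slc17a9, which loads nucleotides into vesicles, and Slc20a2 were listed at 0 untreated alone and were within 2-fold between the treated libraries. The sodium-proton exchanger Slc9a8 (9.89 FPKM) was listed above 0 with apoptotic cells alone. No member of the class was at least 2-fold apart from the untreated library in either comparison, out of 3 compared in each.

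**Figure D4:**
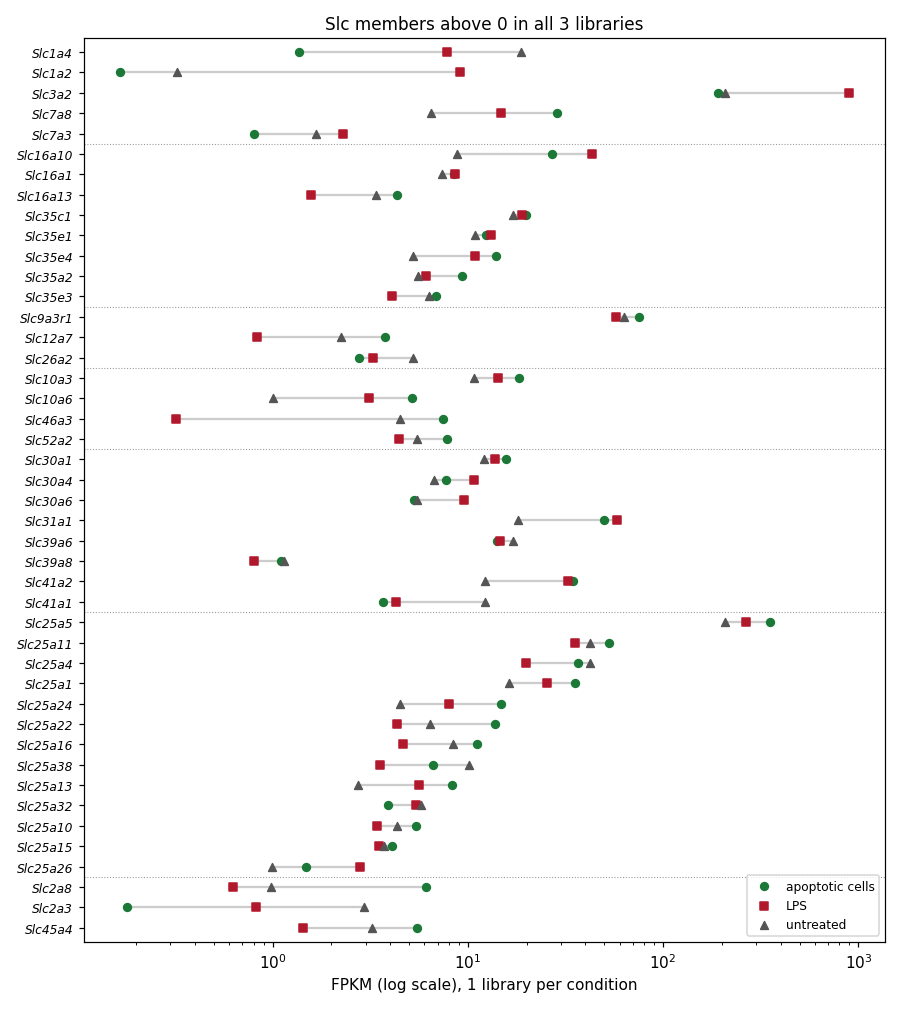
FPKM (log axis) of the 44 members above 0 in all 3 libraries, by class (dotted lines), with apoptotic cells (circles), LPS (squares) and untreated (triangles). Grey lines span the libraries: in 9 members the highest value was under 1.5 times the lowest, and in 10 it was at least 4 times the lowest, with Slc1a2 the widest.

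Carriers that belong to the same superfamily but have other symbols, and partner proteins, were read from lists of 16 and 6 genes, of which 8 and 3 were analysed here. The mitochondrial pyruvate carrier has 2 subunits, present under older symbols: Brp44 was listed at 72.2 FPKM with apoptotic cells, 29.4 with LPS and 0 untreated, and Brp44l at 115 FPKM with LPS alone. Npc1, which moves cholesterol out of the lysosome, was listed at 52.7 FPKM with apoptotic cells, 29.02 with LPS and 0 untreated. The magnesium carrier Magt1 stood at 32.5 FPKM with apoptotic cells, 22.2 with LPS and 13.5 untreated, and it was the 1 of 2 such carriers at least 2-fold higher with apoptotic cells than untreated (log2 ratio 1.21). Of a list of 33 carriers known from macrophages 28 were analysed here and 25 were members. With apoptotic cells 3 of 8 of them were at least 2-fold higher than untreated and 1 was lower, beside 12.4% and 16.4% of all genes. With LPS 4 of 11 stood above and 3 below by that much, beside 8.51% and 26.2% of all genes. Among those below was Slc9a9, at 0.285 FPKM with LPS and 1.73 FPKM untreated. It is no member because its mean was under 1 FPKM, and the shares over all genes leave out such genes. The lysosomal cystine exporter Ctns was listed at 22.9 FPKM with apoptotic cells alone. Of the 3 partner genes, Bsg was higher with apoptotic cells than untreated (1.39). Emb, another chaperone of lactate carriers, was lower in both treated libraries, at 8.6 FPKM with apoptotic cells, 3.46 with LPS and 24.4 untreated. The transferrin receptor gene Tfrc, which brings iron into the cell, was likewise lower, at 9.36 FPKM with apoptotic cells, 10.7 with LPS and 29.8 untreated.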

How the data were processed

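RNA from primary mouse peritoneal macrophages was sequenced in 3 libraries, 1 per condition, grouped by the labels. The authors deposited 1 value per gene symbol and library. These were taken as FPKM: no label states the unit, but Cufflinks 2.2.1 is listed, beside Cuffdiff, TopHat2 2.1.0, cutadapt 1.14 and mm10, per the submitters' processing notes. Options, annotation and strandedness were not given in the sources used here, and exons of 28 of the 116 members overlap a gene on the other strand in GENCODE M21.

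Ratios were computed in Python 3.11.15 with pandas 2.3.3 as log2((FPKM + 1)/(FPKM + 1)) between libraries where the gene was above 0, for genes averaging 1 FPKM or more, and differences of at least 2-fold were counted beside the same share over all genes. The gene lists were read without the filter on the mean. With 1 library per condition no test of a condition was possible, and no test across genes was run. The members, the substrate classes (by family number) and the gene lists were chosen with earlier results of these data known. Genes named are the 10 largest ratios in each direction and comparison, the 4 highest members of each class, the 20 highest members with a listed 0, those at the threshold and the listed carriers, with other members added to complete a class after their values were seen. Of the listed carriers, some were not analysed here. The values of 1 member are not reported here. Coordinates come from GENCODE M21 (GRCm38, the assembly of mm10) and start regions from RefSeq. Depth was estimated from the spacing of the smallest values. The steps were tested on simulated data. Alternatives covered the pseudocount, the filter, the fold threshold, the scaling and the handling of a listed 0.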

Additional observations from a re-analysis of the deposited data

How the results depend on the processing

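The 45 member ratios of at least 2-fold kept their sign under each scaling (to a common sum, median of ratios, upper quartile). This is no check, because the scalings shift a ratio by less than 2-fold and so could not turn these signs. The widest factors, by median of ratios, were 0.787 with LPS and 1.21 untreated. The pseudocount and the handling of a listed 0 cannot turn the sign of a ratio between values above 0 either. Past 2-fold remained 45 with a pseudocount of 0.1, 21 with 5, 34 with median-of-ratios and 36 with upper-quartile scaling.

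Against untreated with apoptotic cells, reported as 11 higher and 3 lower, a pseudocount of 5 gave 5 and 1, and a 1.5-fold threshold 19 and 5. With a listed 0 as a value there were 53 and 13 of 116, around a median of 0.69. Over all genes a pseudocount of 5 gave 235 and 228 of 3369. A listed 0 as a value gave 2682 and 1378 of 7147 genes, around a median of 0.13. Counts over all genes were not made for the 1.5-fold threshold or for other filters on the mean.

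For LPS against untreated, reported as 8 higher and 7 lower, 0 were lower with a pseudocount of 5 and 4 with a mean of at least 5 FPKM. A 1.5-fold threshold gave 15 and 11, upper-quartile scaling 13 and 2, and median-of-ratios scaling 15 and 2 with a median of 0.47. With a listed 0 as a value there were 50 and 18, around a median of 0.46. Over all 3421 genes, a pseudocount of 5 left 164 higher and 321 lower, upper-quartile scaling 482 and 586 and median-of-ratios scaling 647 and 450. A listed 0 as a value gave 2605 and 1674 of 7147 genes, around a median of 0.

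For apoptotic cells against LPS, reported as 13 higher and 3 lower, 6 were higher with a pseudocount of 5, 6 with a mean of at least 5 FPKM and 7 among members above 0 in all 3 libraries. Lower were 7 with a pseudocount of 0.1, 6 after rescaling to a common sum and 8 with upper-quartile scaling. Median-of-ratios scaling gave 7 higher and 9 lower, around a median of -0.0171. A 1.5-fold threshold gave 23 and 12, and a listed 0 as a value 33 and 22. Leaving out Slc7a6os and Slc9a3r1, an alternative added after the values were seen, moved none of these counts by over 1.5 times. Over all 4599 genes, 278 were higher with a pseudocount of 5, and 336 were lower with a pseudocount of 0.1. Lower were 321 after rescaling to a common sum and 391 with upper-quartile scaling. Median-of-ratios scaling gave 420 higher and 444 lower genes, and a listed 0 as a value 1741 and 1423 of 7147. Of 2891 genes above 0 in all 3 libraries, 464 were higher. Median-of-ratios and upper-quartile scaling moved the median of all genes by 0.18 and 0.05 for apoptotic cells against untreated, 0.51 and 0.32 for LPS against untreated and -0.33 and -0.26 for apoptotic cells against LPS. The cause of these differences was not tested. The estimated depth limits values under 1 FPKM most. No paired analysis was possible because each condition has 1 library, and for the same reason no library could be left out.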
